A study of Rattus norvegicus with 12 samples.

Results

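The genes described here encode plasma proteins whose synthesis in the liver changes during inflammation, the acute phase proteins. The set was fixed by name as 10 genes: Orm1, Lrg1, Hp, Hpx, A2m, Crp, Apcs, Saa4, Lcn2 and Itih4. A gene was measured where a transcript cluster, the group of probes the array assigns to a transcript, carried its symbol alone in the platform annotation. This held for 9 of the 10 genes, each with 1 such cluster, out of 18166 single-symbol genes on the arrays. Saa4, which encodes a constitutive serum amyloid A of high-density lipoprotein, is named in 7 clusters, all of them together with a second symbol, Hps5, so no level was assigned to it.

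Liver RNA came from 12 male, homozygous (fa/fa) obese Zucker rats, in which the leptin receptor is defective and which are obese in both diet groups. All were 5 to 6 weeks old when a feeding trial of 4 weeks began. The control group of 6 rats ate a diet without supplement, and the PSC group of 6 rats ate a diet of similar energy and nutrient content with 5% PSC, a biotechnologically made supplement; the series title names an oyster mushroom. The profiled rats were drawn at random from 12 per diet, were killed on day 29, and had been housed 2 to a cage. Lean rats and rats given an inflammatory stimulus were not analysed here. The labels do not say which profiled rats shared a cage, and p-values treat the 12 rats as independent.

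The acute phase response is driven mainly by interleukin-6 and related cytokines, which act on hepatocytes through the shared receptor chain gp130 and STAT3, and by interleukin-1 and tumour necrosis factor, which act through NF-kB. Transcription factors of the C/EBP family take part at many of the promoters. In rats A2m and Orm1 are classical strongly induced genes, whereas Crp is made at a high level without any stimulus, and the same response lowers plasma proteins such as albumin and transthyretin.

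The promoters of 4 genes are given first because their genes bear the comparisons below: Orm1 and Lrg1 passed the test in opposite directions, and Crp and Apcs, neighbouring genes of the pentraxin family, varied oppositely among rats. Each is the RefSeq window of 300 bases around an annotated transcript start on assembly GRCr8, written 5′ to 3′ on the gene's strand, and 7 of the 10 genes have an entry in the table used. Capitals mark matches, on either strand, to TTCNNNGAA (the palindrome bound by STAT proteins), TTNNGNAA (a loose C/EBP pattern) or a 10-base NF-kB pattern.
Orm1, GRCr8 chr5:81788259-81788558, plus strand: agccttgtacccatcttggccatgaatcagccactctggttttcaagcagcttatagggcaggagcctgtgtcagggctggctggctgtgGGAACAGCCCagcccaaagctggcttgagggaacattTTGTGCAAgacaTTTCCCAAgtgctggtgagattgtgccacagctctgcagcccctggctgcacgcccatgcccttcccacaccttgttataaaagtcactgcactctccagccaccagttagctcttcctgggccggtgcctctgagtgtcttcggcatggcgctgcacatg
Lrg1, GRCr8 chr9:1036882-1037181, minus strand: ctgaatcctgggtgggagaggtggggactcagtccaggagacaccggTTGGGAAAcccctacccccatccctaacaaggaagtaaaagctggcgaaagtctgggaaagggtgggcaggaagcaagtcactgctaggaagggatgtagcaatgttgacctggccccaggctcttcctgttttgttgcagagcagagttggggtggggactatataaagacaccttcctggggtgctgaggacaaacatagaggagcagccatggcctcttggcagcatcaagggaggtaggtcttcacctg
Crp, GRCr8 chr13:87693812-87694111, plus strand: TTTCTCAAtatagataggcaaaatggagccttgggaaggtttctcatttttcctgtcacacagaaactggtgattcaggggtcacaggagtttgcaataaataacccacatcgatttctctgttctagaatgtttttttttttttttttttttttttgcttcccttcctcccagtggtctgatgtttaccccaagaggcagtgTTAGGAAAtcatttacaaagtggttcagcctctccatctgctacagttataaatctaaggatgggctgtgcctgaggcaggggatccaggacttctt
Apcs, GRCr8 chr13:87906459-87906758, minus strand: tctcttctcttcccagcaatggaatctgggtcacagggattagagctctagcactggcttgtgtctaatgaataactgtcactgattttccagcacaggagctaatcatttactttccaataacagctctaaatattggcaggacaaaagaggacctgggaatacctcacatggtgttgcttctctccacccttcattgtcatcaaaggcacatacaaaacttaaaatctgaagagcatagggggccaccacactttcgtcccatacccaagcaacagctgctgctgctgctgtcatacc
The Orm1 window held 2 matches to TTNNGNAA, TTGTGCAA at position 128 and, on the opposite strand, TTTCCCAA at position 140. Positions are counted from 1 at the 5′ end of the window, and letters are those of the window as printed. The Orm1 window also held 1 match to the NF-kB pattern, GGAACAGCCC at position 91 on the opposite strand. Lrg1 held 1 match to TTNNGNAA, TTGGGAAA at position 48. Crp held 2, TTTCTCAA at position 1 on the opposite strand and TTAGGAAA at position 204, and Apcs held none of the 3 patterns. Among the other members with an entry, Itih4 alone had TTCNNNGAA, as TTCCCAGAA at position 162, and Lcn2 had the NF-kB pattern on the opposite strand, as GGAATGTCCC at position 9. The loose C/EBP pattern occurs in 41.3% of all 33469 promoter windows of this length, TTCNNNGAA in 8.9% and the NF-kB pattern in 5.4%. A match is a description of these letters, and factor binding was not measured.

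Deposited values are log2 signals after RMA, a normalization that corrects background, equalises the distributions of the arrays and summarises probes. Array medians lay between 4.71 and 4.85 on the log2 scale, pairs of arrays correlated at 0.987 to 0.995 across genes, and no pair held identical values. Their brightest clusters reached 13.11 to 13.21. Diets were compared with limma over all genes, and p-values were adjusted over the 18166 genes. The labels name no processing batch or scan date. In whole liver, fewer cells of a type and less RNA per cell cannot be told apart.

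Of the 9 measured acute phase genes, 1 fell and 1 rose with the PSC diet, and 7 did not pass the test. Orm1, which encodes the drug- and steroid-binding alpha-1-acid glycoprotein, fell to 77.3% of the control signal. Lrg1, which encodes leucine-rich alpha-2-glycoprotein, a plasma protein that modulates TGF-beta signalling in endothelium, rose 1.36-fold. Across all genes tested 2.60% were called (473), 1.89% lower and 0.716% higher. The median log2 fold change of the 9 genes was -0.04, beside 0.01 over all genes.

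Orm1 (transcript cluster 17799332) had log2 signals from 11.38 to 11.70 in controls, with a median of 11.51, and from 10.87 to 11.27 in PSC-fed rats. Every PSC-fed rat lay below every control, and PSC replicate 6 was the lowest. The means were 11.51 ± 0.12 and 11.14 ± 0.16 (SD, n = 6 per diet). The log2 fold change was -0.37 (SE 0.08, 95% interval -0.54 to -0.20, limma adjusted p = 0.0267). Orm1 stood at the 99.4th percentile of mean signal among genes, and its spread within diets was near the middle of all genes (47.1st percentile).

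Lrg1 (transcript cluster 17867972) had log2 signals from 4.86 to 5.34 in controls, with a median of 5.14, and from 5.42 to 5.90 in PSC-fed rats. Here every PSC-fed rat lay above every control, with PSC replicates 3 and 5 the highest at 5.90 and 5.69 and the other 4 between 5.42 and 5.47. The means were 5.12 ± 0.19 and 5.57 ± 0.19 (SD, n = 6 per diet). The difference was 0.45 on the log2 scale (SE 0.10, 95% interval 0.23 to 0.66, limma adjusted p = 0.0350). Groups without overlap were seen for 2 of the 9 members, Orm1 and Lrg1, and for 2.19% of all genes. Lrg1 lay at the 50.3rd percentile of mean signal.

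**Figure D1:**
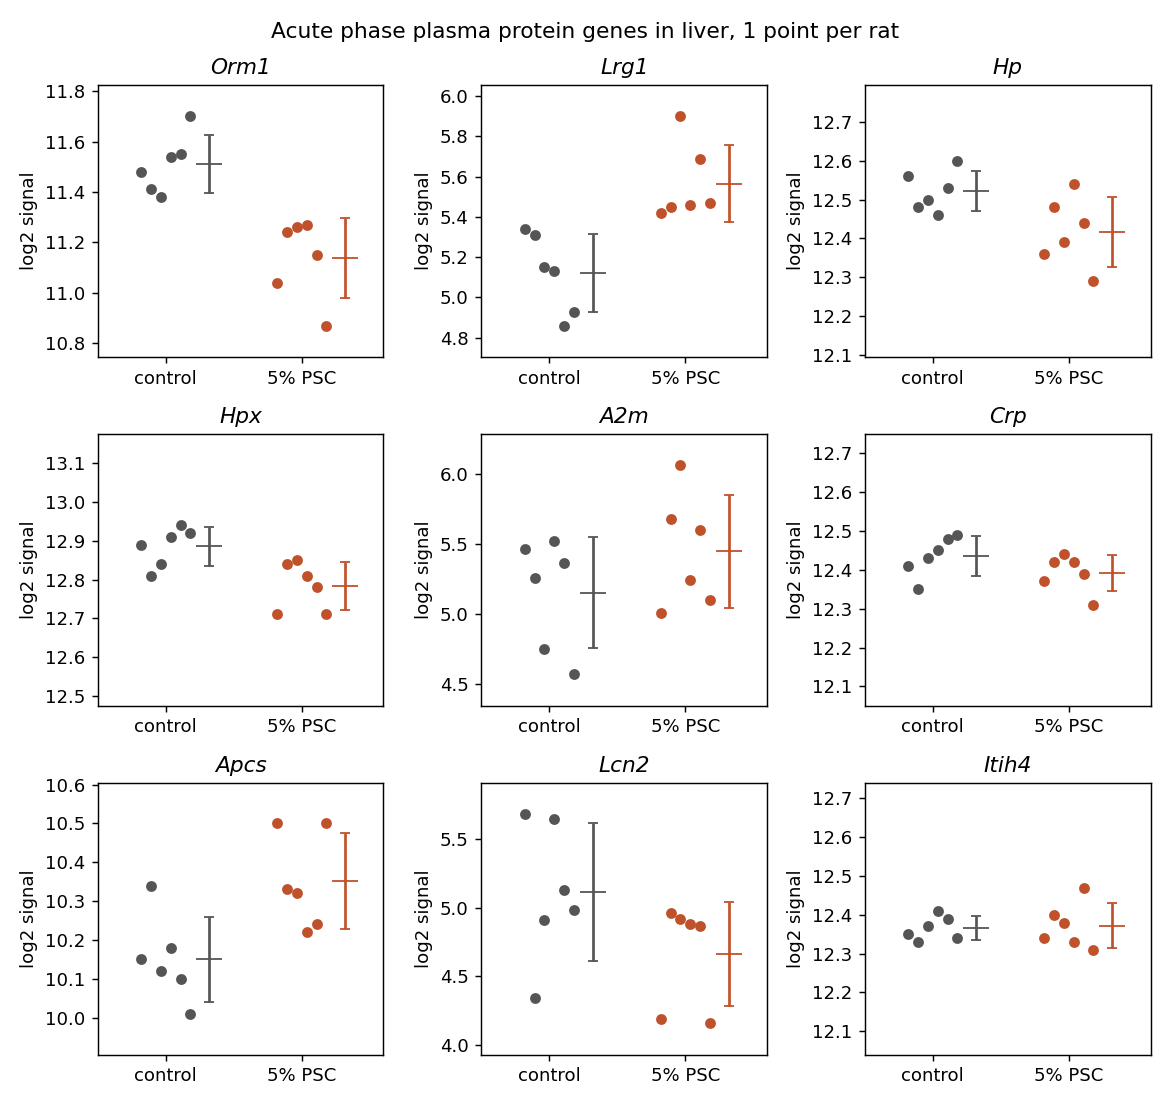
Log2 signal of the 9 measured acute phase genes, with 1 point per rat in accession order of the arrays and the mean ± SD beside the points (n = 6 per diet); each panel has its own axis range. The PSC points lie below all control points for Orm1 (10.87 to 11.27 against 11.38 to 11.70) and above all of them for Lrg1, and the diets overlap in the other 7 panels.

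Both calls were lost in most fits with 1 array left out, while their directions held in every such fit. These fits had fewer arrays and called 142 to 735 genes in all, beside 473 with all 12 arrays. Orm1 missed the threshold in 7 of 12 limma fits, those without control replicate 1 (0.0625), 4 (0.0603), 5 (0.0508) or 6 (0.0588) or without PSC replicate 1 (0.0596), 5 (0.0545) or 6 (0.0542). Its log2 fold changes lay between -0.40 and -0.32 over the 12 fits. Lrg1 missed it in 8 of 12, those without control replicate 3 (0.0607), 4 (0.0687), 5 (0.0651) or 6 (0.0767), or without PSC replicate 1 (0.0503), 3 (0.0533), 5 (0.0743) or 6 (0.0604), with log2 fold changes between 0.38 and 0.49. Without PSC replicate 4 both genes kept the call, at 0.0187 for Orm1 and 0.0309 for Lrg1.

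**Figure D2:**
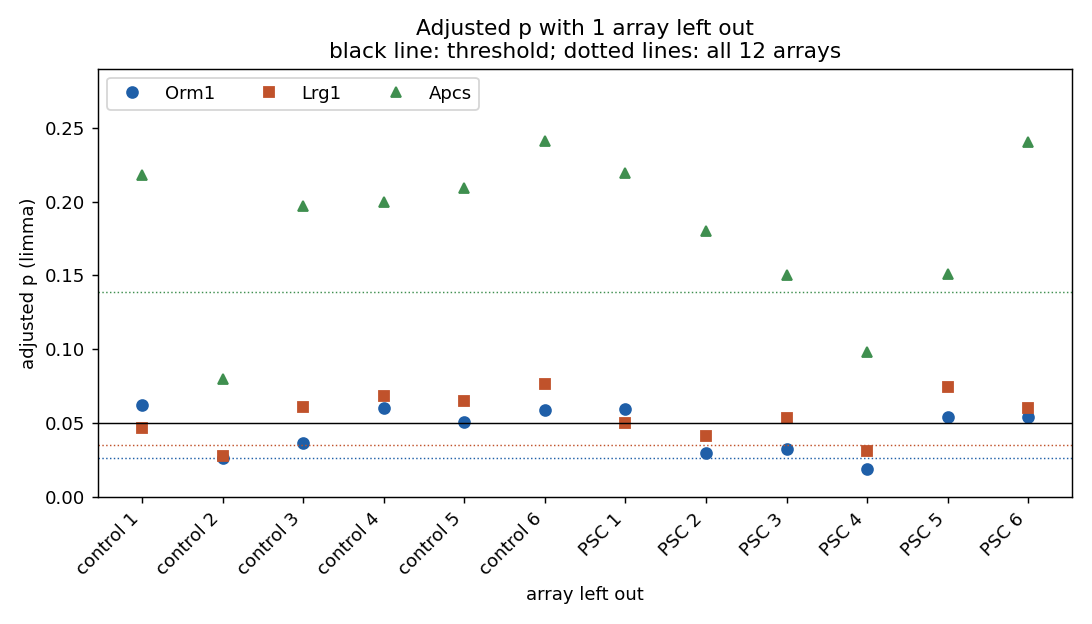
Adjusted p (limma, linear axis) for Orm1, Lrg1 and Apcs after leaving out the array named on the horizontal axis; the black line is the threshold of 0.05 and the dotted lines give the values with all 12 arrays. Orm1 stayed under the threshold in 5 of the 12 fits, Lrg1 in 4 and Apcs in 0.

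The haemoglobin- and haem-binding proteins had small values that did not pass. Haptoglobin, encoded by Hp, captures free haemoglobin, and hemopexin, encoded by Hpx, captures free haem. Hp signals ran from 12.46 to 12.60 in controls and from 12.29 to 12.54 in PSC-fed rats, with 4 of 6 PSC-fed rats below every control. Its log2 fold change was -0.11 (SE 0.06, 95% interval -0.22 to 0.01, limma adjusted p = 0.326). Hpx ran from 12.81 to 12.94 in controls and from 12.71 to 12.85 in PSC-fed rats, with 3 of 6 below every control and a log2 fold change of -0.10 (SE 0.05, 95% interval -0.21 to 0.01, limma adjusted p = 0.301). Under quantile normalization the value for Hpx was -0.04 (adjusted p = 0.739). Hpx lay at the 99.99th percentile of mean signal, and Hp, Crp and Itih4 at 99.9 or above. Their signals lay within 1 log2 unit of the highest on each array, 13.11 to 13.21, and the part of this in their small values was not tested.

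Cd163, the macrophage receptor that takes up haptoglobin-haemoglobin complexes, rose from 6.02 ± 0.55 to 6.89 ± 0.29 (SD, n = 6 per diet). Its log2 fold change was 0.87 (SE 0.21, limma adjusted p = 0.0436), with all 6 PSC-fed rats above every control. Control replicate 1 lay far below the other controls at 4.96, and without it the log2 fold change was 0.66 (limma adjusted p = 0.0393). The call was lost without any 1 of 8 other arrays, control replicates 3 to 6 and PSC replicates 1, 3, 5 and 6, with adjusted p from 0.0532 to 0.0884. Of 11 Kupffer cell markers 0 passed the limma test over all genes (smallest adjusted p = 0.0606). Their values were above 0 for 10 of 11, with a median of 0.35, and 7 had an unadjusted p below 0.05, as did 19.1% of all genes. Their mean centred score ran from -0.838 to 0.124 in controls, where control replicate 1 had the lowest and the other 5 ran from -0.2815 to 0.124, and from -0.0297 to 0.319 in PSC-fed rats; the part of these cells in the Cd163 value was not tested. Hmox1, which encodes the enzyme that breaks down haem, had a log2 fold change of 0.02 (SE 0.13).

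The pentraxins Crp and Apcs encode C-reactive protein and serum amyloid P component, ring-shaped proteins that bind microbial surfaces and cell debris. Apcs had signals from 10.01 to 10.34 in controls and from 10.22 to 10.50 in PSC-fed rats, so the groups overlapped, with 2 of 6 PSC-fed rats above every control. Its means were 10.15 ± 0.11 and 10.35 ± 0.12 (SD, n = 6), and its log2 fold change of 0.20 (SE 0.07, 95% interval 0.05 to 0.35) did not pass over all genes (limma adjusted p = 0.139). Crp ran from 12.35 to 12.49 in controls and from 12.31 to 12.44 in PSC-fed rats. Its log2 fold change was -0.04 (SE 0.05, 95% interval -0.15 to 0.06, adjusted p = 0.668), with -0.07 under cyclic loess and -0.03 without PSC replicate 6. On GRCr8 the 2 genes lie next to each other among the measured genes.

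Among protease inhibitors, A2m encodes alpha-2-macroglobulin, which traps proteases, and Itih4 encodes a heavy chain of the inter-alpha-trypsin inhibitor family. A2m ran from 4.57 to 5.52 in controls and from 5.01 to 6.06 in PSC-fed rats, with 3 of 6 PSC-fed rats above every control. The groups overlapped and the log2 fold change of 0.30 (SE 0.19, 95% interval -0.12 to 0.71, limma adjusted p = 0.430) did not pass. It was 0.17 without PSC replicate 3 and 0.18 without control replicate 6. A2m lay at the 49.6th percentile of mean signal, and its spread within diets was wider than that of 98.8% of genes. Itih4 ran from 12.33 to 12.41 in controls and from 12.31 to 12.47 in PSC-fed rats. It had the narrowest spread of the 9 genes (SD 0.05 within diets) and a log2 fold change of 0.0067 (95% interval -0.10 to 0.11), whose sign turned under quantile and cyclic loess normalization (-0.03 and -0.02).

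Lcn2 encodes lipocalin 2, which withholds iron from bacteria by binding their siderophores and is made by hepatocytes and neutrophils. Its signals ran from 4.34 to 5.68 in controls, with a median of 5.06, and from 4.16 to 4.96 in PSC-fed rats, with a median of 4.88. The groups overlapped: control replicate 2 was low at 4.34, PSC replicates 1 and 6 were low at 4.19 and 4.16, and the other 4 PSC-fed rats lay between 4.87 and 4.96. The log2 fold change of -0.45 (SE 0.22, 95% interval -0.91 to 0.01, limma adjusted p = 0.271) was as large in size as that of Lrg1 and did not pass. Its spread within diets, an SD of 0.44, was the widest of the 9 genes and wider than that of 99.3% of all genes.

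Neutrophils also make Lcn2 and Lrg1. Of 13 measured neutrophil markers 0 passed by limma. An unadjusted p below 0.05 was held by 1 lower and 1 higher marker, and by 19.1% of all genes. The median log2 fold change of the markers was -0.02. Their mean centred score ran from -0.0343 to 0.0226 in controls and from -0.109 to 0.0711 in PSC-fed rats. Their mean signals lay between 2.28 and 4.75, beside array medians of 4.71 to 4.85. Ctsg, S100a8 and Cebpe, the markers with the smallest p, had 0.21, -0.18 and 0.15 on the log2 scale. PSC replicate 3, the highest for Lrg1, had the lowest neutrophil score of the 12 arrays, and PSC replicate 5, the next highest, had the highest. The part of neutrophils in the values of Lcn2 and Lrg1 was not tested. Hepatocyte markers showed 1 lower and 0 higher of 12, where 1.89% of all genes were called lower and 0.716% higher. The lower marker was the cytochrome P450 gene Cyp3a18 (-1.12, SE 0.27, limma adjusted p = 0.0435). The score of the hepatocyte markers ran from -0.0576 to 0.0333 in controls and from -0.0501 to 0.0558 in PSC-fed rats.

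Members also varied together among rats of 1 diet. After each diet's mean was subtracted, Pearson correlations over the 12 arrays were computed for the 36 pairs of members, with permutation within diets and adjustment over the 36. They ran from -0.812 to 0.881, and 8 pairs had an adjusted p below 0.05, or 4 by Spearman. Pairs of other genes were not tested, so the share of them that would pass is not known. The arrays share their normalization, so these values describe the arrays as well as the rats.

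Orm1, Hpx and Crp varied together from array to array within diets, over narrow ranges for Hpx and Crp. Their within-diet SDs were 0.14, 0.06 and 0.05 log2 units. Among all genes the spreads of Hpx and Crp lay at the 1.6th and 0.79th percentiles. How much of such small differences comes from the arrays was not tested. Hpx and Crp correlated at r = 0.881 (permutation p = 0.00014, adjusted p = 0.00504; Spearman rho 0.895, p = 2e-04, adjusted p = 0.00522). Orm1 correlated with Crp at r = 0.870 (permutation p = 4e-04, adjusted p = 0.00672; rho 0.897, p = 0.00029, adjusted p = 0.00522) and with Hpx at r = 0.862 (permutation p = 0.00056, adjusted p = 0.00672; rho 0.844, p = 0.00191, adjusted p = 0.0229). Without the 2 arrays farthest from the median of the first-named gene these were 0.881, 0.771 and 0.894. Within controls they were 0.876, 0.765 and 0.790, and within PSC-fed rats 0.904, 0.984 and 0.907.

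Apcs varied against Crp, Hp and Orm1. With Crp, its genomic neighbour, it correlated at r = -0.812 (permutation p = 0.00331, adjusted p = 0.0298; rho -0.797, p = 0.00469, adjusted p = 0.0422), and at -0.566 without control replicate 2 and PSC replicate 6. With Hp it had r = -0.789 (permutation p = 0.0042, adjusted p = 0.0302; rho -0.764, p = 0.00865, adjusted p = 0.0623), or -0.695 without PSC replicates 4 and 6. With Orm1 it had r = -0.759 (permutation p = 0.00872, adjusted p = 0.0392; rho -0.746, p = 0.0106, adjusted p = 0.0636), or -0.632 without control replicate 6 and PSC replicate 6. With Hpx, the third gene of the trio above, it did not pass (r = -0.734, permutation p = 0.015, adjusted p = 0.060; rho -0.635, p = 0.0397, adjusted p = 0.143), and r was -0.513 without control replicate 2 and PSC replicate 1. Orm1 with Hp (r = 0.778, permutation p = 0.00708, adjusted p = 0.0392; rho 0.678, p = 0.0266, adjusted p = 0.110) and Hpx with Lcn2 (r = 0.759, permutation p = 0.00817, adjusted p = 0.0392; rho 0.655, p = 0.0275, adjusted p = 0.110) completed the 8 pairs. Without the 2 farthest arrays they had r = 0.580 each.

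No pair that held Lrg1, A2m or Itih4 passed. The largest correlation of Lrg1 was with A2m, at r = 0.588 (permutation p = 0.0595, adjusted p = 0.135; rho 0.504, p = 0.121, adjusted p = 0.256), or 0.298 without control replicate 1 and PSC replicate 3. With Orm1 it had r = -0.0723 (permutation p = 0.83, adjusted p = 0.905; rho -0.294, p = 0.373, adjusted p = 0.562), with -0.675 among controls and 0.375 among PSC-fed rats, and with -0.0673 without control replicate 6 and PSC replicate 6. Its signs also differed between the diets with Crp (-0.878 among controls, 0.460 among PSC-fed rats) and with Hpx (-0.722 and 0.512), differences that were not tested. PSC replicate 6 was the lowest PSC-fed rat, or tied for it, for 6 of the 9 members, and PSC replicate 3 was the highest for 4, Lrg1 and A2m among them.

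**Figure D3:**
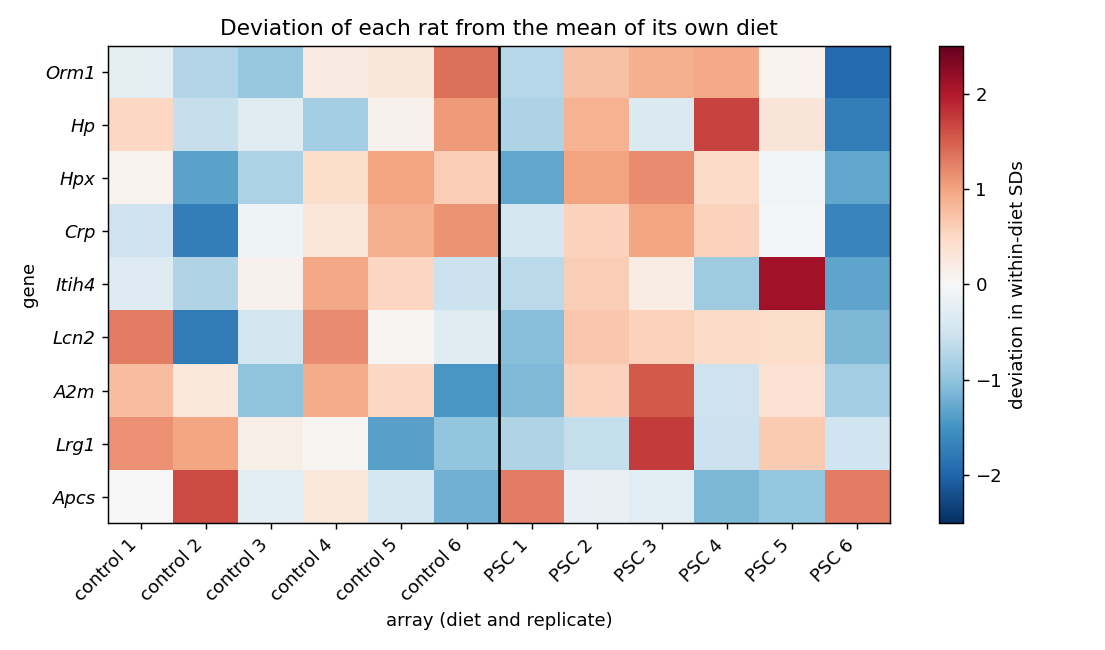
Deviation of each rat (columns, 6 controls then 6 PSC-fed rats) from the mean of its own diet for each member (rows), in units of that gene's within-diet SD; red is above and blue below the diet mean. Control replicate 2 and PSC replicate 6 are low for Orm1, Hp, Hpx, Crp, Itih4 and Lcn2 and high for Apcs.

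Genes with the most similar pattern among rats of 1 diet were sought over all named genes for the called members and for Lcn2, the most variable one. Over 12 arrays the closest to Orm1 were Bsdc1 (r = 0.975), the ATP synthase subunit gene Atp5f1d (0.962) and Hoga1, a mitochondrial enzyme gene of hydroxyproline breakdown (0.960). The closest to Lrg1 were the deubiquitinase gene Usp47 (0.883), the Golgi calcium pump gene Atp2c1 (0.879) and Cdc42ep2 (0.858). The closest to Lcn2 were Olr1, the receptor for oxidised LDL (0.943), and the membrane traffic genes Arl1 (0.941) and Rab8a (0.941). Symbols made of LOC or RGD and a number were passed over, and the rest of the 18166 genes were ranked. The values are the highest of that ranking, over few arrays that share a normalization, and are given as a description. Of these 9 genes Olr1 changed between the diets, falling by 1.40 on the log2 scale (SE 0.29, limma adjusted p = 0.0257).

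No nearest measured neighbour of a member on GRCr8 changed with diet. Orm1 lies between Col27a1 (log2 fold change 0.13) and Akna (0.10), and Lrg1 between the lipid droplet gene Plin5 (0.12) and Sema6b (-0.12), none of which passed (limma adjusted p from 0.244 to 0.439). Itih3, of the same family as Itih4 and next to it, had 0.0017. Mug1l1, next to A2m and a relative of it by name, had 0.20 (adjusted p = 0.139), and probes for one may bind transcripts of the other. Txnl4b overlaps the Hp locus and had 0.07 (SE 0.08).

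Other positive acute phase proteins, those that inflammation raises, were taken from a fixed list of 26 genes, of which 23 were measured. In this list 1 fell, 0 rose, and 22 did not pass; 18 values lay below 0, and the median log2 fold change was -0.05 beside 0.01 over all genes. At an unadjusted p below 0.05, 6 were lower and 0 higher. In either direction this is 6 of 23, where 19.1% of all genes had such a p. How that share divides by direction was not counted. Of all genes 1.89% were called lower and 0.716% higher by the adjusted p. The gene of this list that fell was Lbp, which encodes the lipopolysaccharide-binding protein. Its signals ran from 10.99 to 11.52 in controls and from 9.97 to 10.87 in PSC-fed rats, without overlap, a log2 fold change of -0.86 (SE 0.15, limma adjusted p = 0.0125) that passed whichever array was left out.

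Members of that list that did not pass were close to 0 where the fibrinogen chains were concerned: Fga, Fgb and Fgg had 0.03, -0.0050 and -0.0033 on the log2 scale. The complement genes C9 and C3 had -0.17 (SE 0.05, limma adjusted p = 0.0798) and -0.05 (SE 0.05). The copper carrier gene Cp had -0.16 (SE 0.06), the mannose-binding lectin gene Mbl2 -0.20 (SE 0.08) and the kininogen gene Kng1 -0.15 (SE 0.07). Serpina3n, encoding an antichymotrypsin-type inhibitor, and Hamp, encoding the iron hormone hepcidin, had -0.09 (SE 0.06) and -0.10 (SE 0.08). C9 was the other gene of the list, beside Lbp, with all PSC-fed rats below every control.

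Negative acute phase proteins, which inflammation lowers, were measured for 13 of 18 listed genes. Here 1 fell, 1 rose and 11 did not pass, with 11 values above 0 and a median of 0.10 beside 0.01 over all genes. At an unadjusted p below 0.05, 1 was lower and 5 higher. Over all genes 19.1% had such a p in either direction, and that share was not divided by direction. F12 (0.15, SE 0.05, limma adjusted p = 0.138) was the 1 gene of this list without overlap, with all PSC-fed rats above every control. Igfals, which encodes the acid-labile subunit that holds insulin-like growth factors in plasma, rose from 8.08 ± 0.21 to 8.51 ± 0.20 (SD, n = 6; log2 fold change 0.42, SE 0.11, limma adjusted p = 0.0484). With 1 array removed it passed in 2 of 12 fits, those without control replicate 5 (0.0439) or PSC replicate 2 (0.0427). The other 10 gave adjusted p from 0.0588 to 0.104. Serpina7, which encodes thyroxine-binding globulin, fell by 1.41 (SE 0.32, adjusted p = 0.0332). Serpina7 missed the threshold in the fits without control replicate 1 (0.0806), 4 (0.0711) or 6 (0.0714), or PSC replicate 1 (0.0640), 3 (0.0579), 5 (0.0634) or 6 (0.0758). Albumin and transthyretin, encoded by Alb and Ttr, had -0.0017 (SE 0.05) and 0.10 (SE 0.05), and the fetuin gene Fetub had 0.17 (SE 0.06, adjusted p = 0.113).

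Of 24 measured genes of acute phase signalling and transcription, 1 fell, 1 rose and 22 did not pass, with a median of -0.0025. Over all genes 1.89% fell and 0.716% rose. In this list 6 were lower and 2 higher at an unadjusted p below 0.05, where 19.1% of all genes had such a p in either direction. Osmr, which encodes the oncostatin M receptor that pairs with gp130, fell from 7.68 ± 0.44 to 6.22 ± 0.41 (SD, n = 6). The log2 fold change was -1.46 (SE 0.20, limma adjusted p = 0.0041). All PSC-fed rats lay below every control, and the call held without any 1 array. Cebpa, which encodes C/EBP alpha, rose by 0.30 (SE 0.07, adjusted p = 0.0412) and held its call without control replicate 2 alone, at 0.0391, while the other 11 such fits gave adjusted p from 0.0514 to 0.0996. The gp130 gene Il6st had -0.24 (SE 0.07, adjusted p = 0.0718), Stat3 -0.30 (SE 0.09, 0.0740) and Nfkb1 -0.24 (SE 0.07, 0.0607). Il1r1 had -0.33 (SE 0.14, limma adjusted p = 0.209) and Rela -0.19 (SE 0.09, 0.240). Onecut1 had the highest value of the list, 0.66 (SE 0.24, limma adjusted p = 0.158). Il6r and Socs3, a STAT3-induced inhibitor of the pathway, had 0.14 (SE 0.13) and -0.26 (SE 0.16), and Cebpb had 0.03 (SE 0.06).

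None of 11 inducing cytokine genes passed by limma, and the median was 0.0083. In this list 1 was lower and 1 higher at an unadjusted p below 0.05, where 19.1% of all genes had such a p. Clcf1, encoding a cytokine of the gp130 family, had -0.27 (SE 0.09, limma adjusted p = 0.113), Il22 0.25 (SE 0.09) and Il6 0.14 (SE 0.07). Il1b had 0.0083 (SE 0.06) and Tnf 0 (SE 0.14), and the median of mean signals in this list, 4.41, lay below the array medians. Without control replicate 1, whose Clcf1 signal of 4.91 lay below the other controls, Clcf1 passed (-0.34, adjusted p = 0.0468).

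Among receptors and clearance partners of the members, Cd163 rose as 1 of 9 measured genes, 0 fell, and the median was 0.06. Over all genes 0.716% rose and 1.89% fell. The lipocalin 2 receptor gene Slc22a17 had 0.18 (SE 0.06, limma adjusted p = 0.0988). Acvrl1, which encodes an endothelial TGF-beta family receptor in the pathway that Lrg1 protein modulates, had 0.19 (SE 0.07, adjusted p = 0.167). Lrp1, the receptor that clears alpha-2-macroglobulin and hemopexin complexes, had 0.07 (SE 0.05).

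**Figure D4:**
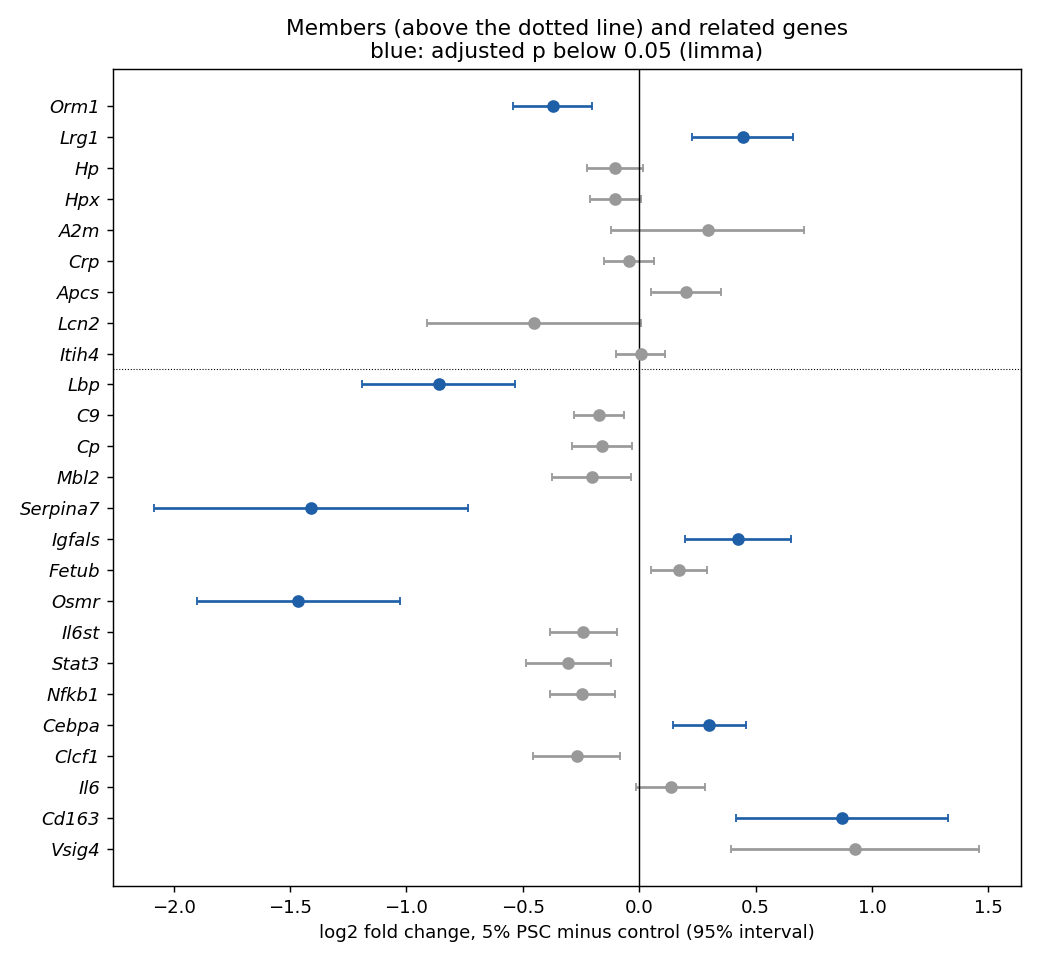
Log2 fold change (5% PSC minus control) with its 95% interval for the 9 measured members, above the dotted line, and for related genes from the fixed lists, below it; blue marks an adjusted p below 0.05 by limma over all genes. Orm1 (-0.37) and Lrg1 (0.45) are the members in blue, and Osmr, Serpina7 and Lbp have the lowest values of the genes shown.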

How the data were processed

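Liver RNA of 12 rats, 6 per diet, was hybridised to Affymetrix Rat Gene 2.0 ST arrays, 1 rat per array. The authors deposited log2 values, 1 for each transcript cluster. The submitters' processing notes name RMA, run in Affymetrix Expression Console. For the version, filters, detection calls and annotation build, the sources used here give nothing.

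Of the clusters, 18511 have 1 gene symbol, 575 several and 11261 none in the platform annotation. Those with 1 symbol were used, by the cluster with the highest mean signal where a gene had several (291 genes), which gave 18166 genes. Some genes of the lists were not analysed here. Diets were compared with limma 3.58.1 (R 4.3.3). Tests were two-sided, p-values were adjusted by Benjamini-Hochberg across the 18166 genes, and the threshold was 0.05. The test was checked on simulated data. These were drawn independently for each gene, so the check does not cover patterns that genes share across arrays. Pairs of members were tested by permutation within diets with 100000 resamples. The number of arrays limits the precision. Figures were drawn with matplotlib 3.10.9.

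Members and lists were chosen with earlier results of these data known. Named genes are all members, the list genes past the threshold or else the 3 with the smallest p, and the 3 genes most similar to a called or the most variable member. Other list genes named with values were chosen after these were seen. Samples took their groups from the titles. A score of a list is the mean of its genes after centring each gene over the arrays. Alternatives were median centring, quantile and cyclic loess normalization, a filter on dim genes, averaging the clusters of each gene, testing every cluster, blocking on the replicate number, weighting arrays, letting the variance prior follow the signal, exact permutation, and leaving out arrays.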

Additional observations from a re-analysis of the deposited data

Results flagged for a closer look

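None of the 9 members had a rat that stood apart within its diet, by the gap to the nearest other rat over the whole range of the 6. Of 68 groups checked, over 34 genes, 5 had one, where chance gives about 1 in 20. Lbp had 10.99 in control replicate 2, with the other controls from 11.33 to 11.52. Control replicate 1 stood apart in 3 genes: Clcf1 at 4.91 (others 5.28 to 5.40), Cd163 at 4.96 (others 6.04 to 6.45) and the Kupffer cell marker Clec4f at 6.10 (others 7.22 to 7.48). The collagen gene Col3a1 had 9.08 in PSC replicate 4, with the other PSC-fed rats no higher than 8.77.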

How the results depend on the processing

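Of 22 alternatives with an adjusted p, Orm1 kept its direction in all 22 (-0.40 to -0.32) and its call in 13, and Lrg1 kept its direction in all 22 (0.38 to 0.49) and its call in 11. Leaving out 1 array gave 0 to 2 called members, 1 other positive acute phase gene in each fit, 0 to 2 negative ones, 1 or 2 signalling genes, 0 or 1 cytokine, 0 or 1 receptor, 0 neutrophil markers and 142 to 735 genes in all. With the replicate number as a block, limma called 0 members, 0 other positive, 0 negative, 1 signalling gene, 0 receptors and 94 genes in all. At an unadjusted p below 0.05 this fit had 3 members, and 3107 of all 18166 genes. The adjusted p of Orm1 was then 0.0988, of Lrg1 0.0891, of Lbp 0.0504, of Serpina7 0.0521, of Igfals 0.0821, of Cebpa 0.0862 and of Cd163 0.0988. The labels do not say whether the numbers pair the rats. Deviations of same-numbered arrays correlated at -0.151 to 0.111, over 0.1 in 1 of 6 pairs, and 1 control correlated best with its own number. These values show no clear pairing, but so few pairs cannot settle it. Testing all clusters called 1 member (Orm1; Lrg1 had 0.0614), 0 negative, 1 signalling gene, 0 receptors and 254 genes in all, with more tests to adjust for. Without PSC replicates 2 and 5 together, 0 members, 0 negative, 1 signalling gene, 0 receptors and 225 genes in all were called; Orm1 had 0.0548 and Lrg1 0.0901. A trend in the variance prior gave 2 other positive genes, C9 added, and 5 signalling genes, Il6st, Stat3 and Nfkb1 added; the filter on dim genes gave 4 signalling genes, Il6st and Nfkb1 added; and array weights 1 negative gene (the cause was not tested). Exact permutation of the diets, unadjusted, put 5 members below 0.05. These were Orm1 and Lrg1 (0.00216 each, the smallest possible), Apcs (0.0173), Hpx (0.0195) and Hp (0.0368). It was run on the members only, so no share over all genes stands beside this count. By limma 3 members had an unadjusted p below 0.05, as did 19.1% of all genes. The log2 value of Hpx was -0.039 under quantile normalization and -0.134 under cyclic loess. That of Crp was -0.069 under cyclic loess, and that of A2m ran from 0.17 to 0.38 without 1 array. The value of Itih4 turned to -0.026 under quantile normalization, -0.018 under cyclic loess, -0.0028 with array weights and -0.025 without PSC replicates 2 and 5, and ranged from -0.013 to 0.019 without 1 array. Median centring and the mean of a gene's clusters moved no count past 1.5 times. Hp, Hpx, Crp and Itih4 had mean signals at the 99.9th percentile or above, and Lrg1, A2m and Lcn2 between the 42.5th and 50.3rd; how far either position limits a measured change was not tested.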

Other observations

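Marker lists of other liver cells gave these values by limma over all genes. They were fixed with the members, when earlier results of these data were known. Of all genes 1.89% were called lower and 0.716% higher. Of 9 stellate cell markers 4 fell and 0 rose, with a median log2 fold change of -0.30: Dcn (-0.88), Col1a2 (-0.58), Rgs5 (-0.48) and Col3a1 (-0.30). Of 6 bile duct markers 1 fell, Spp1 (-0.63, SE 0.14), which macrophages also express, and the median was 0.05. Of 9 lymphocyte markers 1 rose, the cytotoxic granule gene Nkg7 (0.51, SE 0.11), and the median was 0.19. Of 5 endothelial markers 0 passed, with 1 lower and 2 higher at an unadjusted p below 0.05, where 19.1% of all genes had such a p. Vwf had -0.32 (SE 0.09), Stab1 0.22 (SE 0.07) and Lyve1 0.44 (SE 0.20). The part of these liver cells in the values of Lrg1 and of the other members was not tested.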
